A study of Drosophila melanogaster with 2 samples.

Results

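The nuclear genes of respiratory complex I were examined for binding of CG17802 in whole Drosophila melanogaster embryos. All annotated protein-coding genes with a symbol starting with ND- on the nuclear chromosomes were taken, which gave 40 genes of 13968. The measurement was transcription factor ChIP-seq, in which DNA attached to a protein is pulled down with an antibody and sequenced. The samples were 2 biological replicates of embryos aged 0 to 14 h, both sexes mixed, from a transgenic line that stably carries CG17802 with GFP at its C terminus, and both replicates carry the same line in the labels. With 1 group there is no second condition to compare. The labels are at odds on what was sequenced: the antibody given is CG17802 and another experiment is named as the possible control, yet the free-text description speaks of input DNA. CG17802, also called Nicknack, belongs to the ZAD family of zinc-finger proteins. The embryos were used whole, so the peaks do not say in which cells a gene was bound, and how the fusion level compares with that of the endogenous protein is not given in the sources used here.

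Complex I is the first enzyme of the mitochondrial respiratory chain. Its matrix arm takes electrons from NADH (the N module) and passes them along iron-sulphur clusters to ubiquinone (the Q module), and its membrane arm pumps protons across the inner membrane. Most of its subunits are encoded in the nucleus and imported from the cytoplasm. RefSeq lists a mammalian NDUF name for 34 of the 40 genes, and the roles given here are those of the mammalian homologues. The other 6 are paralogues with symbols ending in L or in L and a number.

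A gene was called bound when the summit of a peak in the authors' reproducibility-thresholded list lay within 500 bp of any of its annotated transcription start sites (TSSs). That list holds 3535 peaks. The lists of the 2 replicates and of both replicates pooled hold 30000 peaks each, peaks and background together. Each peak has a signal, in the authors' unit of unstated scale, and a rank by signal within its list, with 1 the strongest. A thresholded peak carries its pooled-list signal. Signals of different lists are set side by side and not divided by each other. Sequencing depth is unknown for these files.

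The sequences under 4 of the summits described here show where in the promoters the peaks lay. They are RefSeq sequences of Release 6 (dm6), each read in the direction of its complex I gene, with the 11 bases centred on the summit in capitals. The first is the stretch at ND-51, chr2L:6062866-6062986, minus strand. The next pair, chr3L:24976122-24976242 and chr3L:24927030-24927129, both plus strand, is shown because ND-AGGG and CG40472 are near copies. The last is ND-20, chrX:15986843-15986963, minus strand, a subunit of the Q module.
ND-51: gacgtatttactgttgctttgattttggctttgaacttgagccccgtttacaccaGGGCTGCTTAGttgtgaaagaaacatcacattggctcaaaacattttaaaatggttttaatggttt
ND-AGGG: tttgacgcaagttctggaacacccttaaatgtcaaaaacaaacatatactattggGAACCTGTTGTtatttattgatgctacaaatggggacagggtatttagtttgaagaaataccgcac
CG40472: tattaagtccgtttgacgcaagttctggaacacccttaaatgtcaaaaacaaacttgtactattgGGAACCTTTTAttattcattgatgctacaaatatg
ND-20: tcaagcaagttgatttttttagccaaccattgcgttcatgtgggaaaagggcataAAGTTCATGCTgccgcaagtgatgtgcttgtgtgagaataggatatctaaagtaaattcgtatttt

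Of the 40 complex I genes, 12 were bound, a share of 30%, beside a background of 16.8% of all protein-coding genes (2352 of 13968). The Wilson 95% interval of the complex I share ran from 18.1% to 45.4%, and that of the 13928 other genes from 16.2% to 17.4%. These intervals cover counting error over genes only, and genes that share a promoter or a chromosome segment are not independent. When every peak of the pooled list was taken, 20 of 40 complex I genes had a summit, or 50%, beside a background of 46.9% of all protein-coding genes (6551 of 13968). The share of complex I genes was therefore above the background among the thresholded peaks and near it among all pooled peaks. The bound genes included ND-51, ND-24, ND-20, ND-MWFE, ND-42, ND-AGGG, ND-ASHI, ND-PDSW, ND-B22, ND-SGDH and ND-MLRQ.

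By position in the enzyme, 2 of 8 N-module genes, 2 of 7 Q-module genes, 2 of 7 genes of the proximal membrane arm and 5 of 11 genes of the distal membrane arm were bound, beside the background of 16.8% of all protein-coding genes. ND-MLRQ, whose mammalian homologue NDUFA4 is now counted with complex IV, was bound as well and stands apart from these groups. None of the 6 paralogues was bound, with a Wilson 95% interval of 0% to 39% that contains the background. CG40472, a near copy of ND-AGGG described below, was bound but is not among these 6 because of its symbol. Without the 6 paralogues the share was 12 of 34, or 35.3% (Wilson 95% interval 21.5% to 52.1%). On the large chromosome arms the bound genes were 3 of 9 on 2L, 1 of 8 on 2R, 3 of 9 on 3L, 1 of 4 on 3R and 3 of 9 on X. The bound share of all protein-coding genes was not counted by arm, so these counts show no difference between arms. Each group holds few genes, and their intervals overlapped.

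In the N module, ND-51 and ND-24 were bound. ND-51 encodes the homologue of NDUFV1, the subunit that binds NADH and the flavin that takes its electrons. Its gene lies at chr2L:6060842-6062757 on the minus strand, and its peak covers chr2L:6062565-6063283. The signal was 2377 in replicate 1 and 6869 in replicate 2, at ranks 19 and 12, and 9251 in the thresholded list, at rank 12 of 3535. Among the complex I genes it was the strongest peak in each of these lists. The summit sat 169 bp upstream of the ND-51 start and 63 bp from the start of the neighbouring gene CG13994, so the peak lies at a promoter that both genes share.

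ND-24 encodes the homologue of NDUFV2, an iron-sulphur subunit beside NDUFV1. Its signal was 35.1 in replicate 1 and 157.1 in replicate 2, and 195.4 in the thresholded list, at rank 1672. The replicates placed it apart, at rank 3336 in replicate 1 and rank 1512 in replicate 2. Its summit lay 97 bp inside the gene, in an intron, and 139 bp from the start of corolla, a gene of the synaptonemal complex that pairs chromosomes in meiosis. The remaining N-module genes were not bound, among them ND-75, the homologue of NDUFS1 and carrier of several iron-sulphur clusters, which had no peak within 500 bp in any list. ND-13A, a small zinc-binding subunit (NDUFS6), had none either.

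Of the Q-module genes, which encode the part of the enzyme where ubiquinone is reduced, ND-20 was among those bound. ND-20 encodes the homologue of NDUFS7, which holds the iron-sulphur cluster that hands electrons to ubiquinone. Its signal was 198.9 in replicate 1 and 684.1 in replicate 2, at ranks 313 and 221, and 873.7 in the thresholded list, at rank 236. The summit was 95 bp upstream of the start, with no other gene within 500 bp of it. Further core genes of this module, ND-30 (NDUFS3) and ND-23 (NDUFS8), had no peak within 500 bp in any list. ND-23 shares its promoter with spn-E, a helicase gene of the piRNA pathway that silences transposons in the germ line, and ND-30 shares its promoter with CG15812.

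In the proximal membrane arm, ND-MWFE and ND-42 were bound. ND-MWFE, the homologue of the small membrane-spanning subunit NDUFA1, had a signal of 89.2 in replicate 1 and 154.2 in replicate 2, and 240.3 in the thresholded list, at rank 1274. Its summit lay 198 bp upstream of its own start and 23 bp from the start of TppII, which encodes a tripeptidyl peptidase. ND-42, the homologue of NDUFA10 and related in sequence to nucleoside kinases, had a signal of 32.1 in replicate 1 and 107.4 in replicate 2, and 123.7 in the thresholded list, at rank 3047. Each replicate list held 2 peaks within 500 bp of its start. The stronger lay 368 bp away in replicate 1 and 213 bp away in replicate 2, which need not be the same peak. The thresholded summit was 228 bp upstream of ND-42 and 1 bp from the start of Cchl. A further pooled-list peak, outside the thresholded list, had its summit 24 bp from the ND-42 start. Cchl encodes the lyase that attaches heme to cytochrome c, the electron carrier further down the same chain. Both thresholded summits were thus closer to the neighbour than to the complex I gene.

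The distal membrane arm held the most bound genes, at 5 of 11. ND-AGGG, an accessory subunit and homologue of NDUFB2, was the strongest of them. The gene lies in the centromere-proximal segment of 3L, at chr3L:24976254-24977118 on the plus strand, and its peak covers chr3L:24974977-24976354. Its signal was 1697 in replicate 1 and 3232 in replicate 2, at ranks 36 and 41, and 4906 in the thresholded list, at rank 41. The summit was 72 bp upstream of the start, and no other gene started within 500 bp of it. Taking the midpoint of its wide interval in place of the summit put the peak more than 500 bp away, and ND-AGGG was then not counted as bound.

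The other 4 genes of the distal arm, all accessory subunits, had far lower signals. ND-ASHI (NDUFB8) had a signal of 97.0 in replicate 1 and 209.4 in replicate 2, and 301.1 in the thresholded list, at rank 945. Its summit was 265 bp upstream of ND-ASHI and 257 bp from the start of Fum1, which encodes fumarase of the citric acid cycle. ND-PDSW (NDUFB10) had a signal of 75.6 in replicate 1 and 193.8 in replicate 2, and 258.0 in the thresholded list, at rank 1164. The replicates ranked ND-PDSW closely, at 1093 and 1140. Its summit was 50 bp upstream of ND-PDSW and 5 bp from the start of msl-2, the male-specific component of the dosage compensation complex.

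ND-B22 (NDUFB9) had a signal of 68.6 in replicate 1 and 82.7 in replicate 2, and 149.5 in the thresholded list, at rank 2385. Its summit lay 10 bp from a start of ND-B22, inside the 5′ UTR of its longer transcript, with no other gene within 500 bp. ND-SGDH (NDUFB5) had no peak within 500 bp in replicate 1, a signal of 117.3 in replicate 2 at rank 2213, and 127.5 in the thresholded list, at rank 2943. Its thresholded summit was 20 bp inside the gene, in the 5′ UTR, and 304 bp from the start of RhoGAP68F. ND-SGDH and ND-42 were the bound complex I genes of lowest signal, and both were missed when replicate 2 was left out.

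ND-MLRQ lies in the centromere-proximal segment of 3L, at chr3L:23339326-23345936 on the plus strand. Its signal was 760.9 in replicate 1 and 1565 in replicate 2, at ranks 95 and 102, and 2305 in the thresholded list, at rank 102. The summit was 74 bp upstream of ND-MLRQ and 24 bp from the start of the microRNA gene mir-4942, with no other protein-coding gene nearby.

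**Figure D1:**
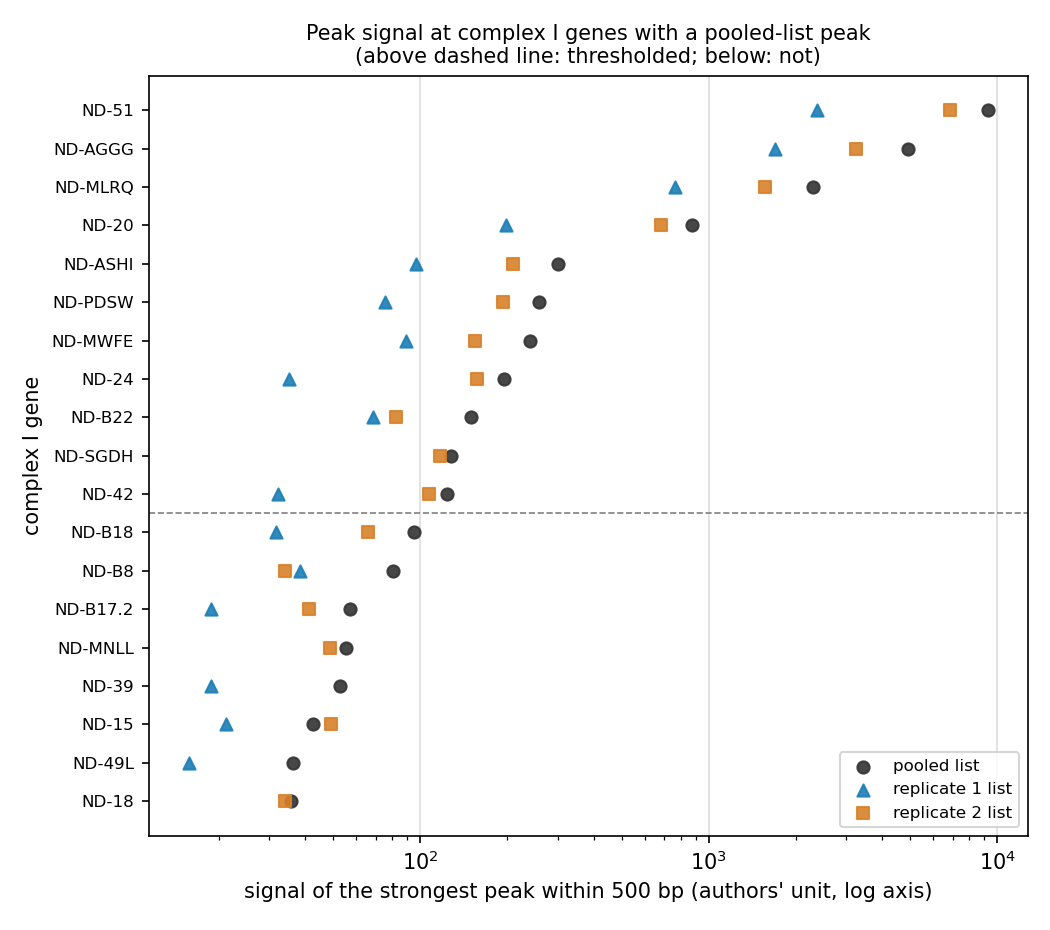
Signal of the strongest peak within 500 bp of a TSS (horizontal log axis, the authors' unit) for 19 complex I genes with a pooled-list peak (vertical axis), with 1 point for each list; a missing point means no peak in that list. The 11 genes above the dashed line were bound, from ND-51 at 9251 to ND-42 at 123.7 in the pooled list, and the 8 genes below it lie between 95.5 and 35.6.

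The plot of signal by list shows the spread among the bound genes. Of the 12, 5 had a thresholded signal over 800, among them ND-51, ND-AGGG, ND-MLRQ and ND-20, and the other 7 had at most 301.1. The median signal of the bound complex I genes was 279.6 (123.7 to 9251), beside 212.6 (109.9 to 22497) for all 2352 bound protein-coding genes. Their median rank was 1054, beside 1497 for all bound genes. Among the top 100 peaks were those of 3 of the 12 genes, ND-51 and ND-AGGG included, beside 99 of the 2352 bound genes.

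**Figure D2:**
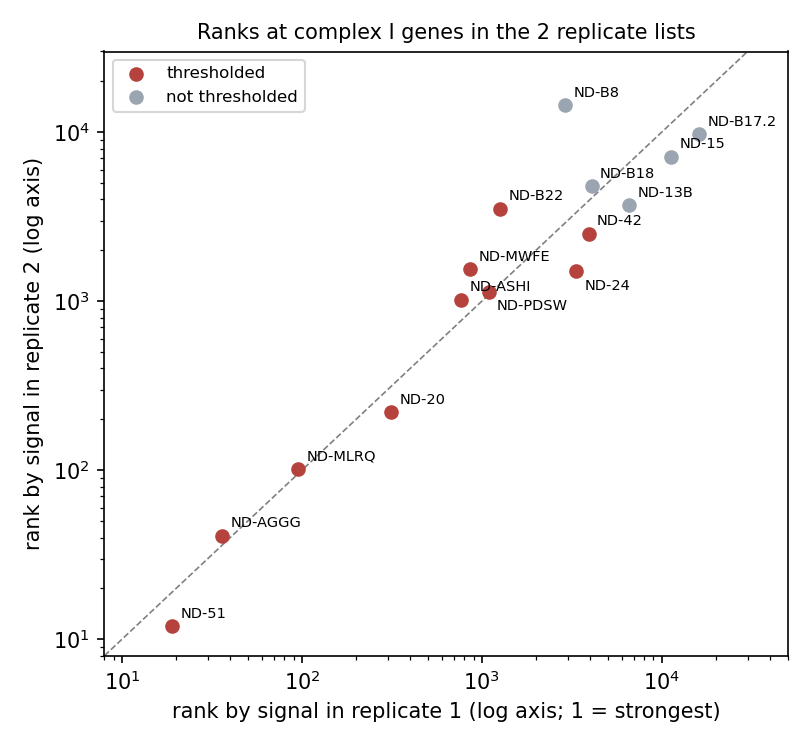
Rank of the peak at each complex I gene in the list of replicate 1 (horizontal log axis) and replicate 2 (vertical log axis), for members with a peak within 500 bp in both; the dashed line marks equal ranks. ND-51, ND-AGGG and ND-MLRQ, the strongest shown, lie at ranks of 12 to 102 in both lists, and ND-B8 lies farthest from the line, at ranks of 2912 and 14424.

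Ranks in the replicate lists show how well the samples agreed, as plotted for both replicates. A peak was present in both for 11 of the 12 bound genes. The larger of the 2 ranks was a median of 1.416 times the smaller, with a range of 1.043 for ND-PDSW to 2.791 for ND-B22. The ratio was at most 1.5 for 6 of the 11 genes and above 2 for ND-B22 and ND-24. With 2 samples of 1 group, these values describe agreement between replicates and carry no test.

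Among the 28 unbound complex I genes, 8 had a pooled-list peak within 500 bp and 20 had none. Over all 13968 protein-coding genes, 6551 had a pooled-list summit, the 2352 bound genes among them. Peaks at unbound complex I genes are therefore listed as a description only. Of the 8, the nearest to the threshold was ND-B18, the homologue of NDUFB7 on the outer face of the membrane arm. Its pooled signal was 95.5 at rank 4284, just outside the 3535 highest peaks, where ND-42 at rank 3047 is just inside. ND-B18 had signals of 31.5 in replicate 1 and 66.0 in replicate 2, at ranks 4075 and 4782, and its promoter is shared with hiw, a ubiquitin ligase gene that limits synapse growth. ND-B8 (NDUFA2), an N-module subunit that shares its promoter with Secp43, had a pooled signal of 80.5 at rank 5349. Its replicates disagreed, with a signal of 38.1 at rank 2912 in replicate 1 and 33.9 at rank 14424 in replicate 2, and it was counted as bound when replicate 2 was left out.

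ND-B17.2 (NDUFA12), an N-module accessory subunit beside Arpc5, had a pooled signal of 56.9 at rank 9383, with 18.8 in replicate 1 and 41.1 in replicate 2. ND-MNLL (NDUFB1), whose promoter is shared with the vesicle-tethering gene p115 and with CG45089, had 55.4 at rank 9906, with no peak in replicate 1 and 48.8 in replicate 2. ND-39 (NDUFA9), a Q-module subunit beside the zinc transporter gene ZnT77C, had 52.5 at rank 11068, with 18.8 in replicate 1 and no peak in replicate 2. Each of these 3 was far down its lists, where peaks and background are mixed. ND-15, ND-49L and ND-18 lay lower still, at pooled ranks 17760, 25817 and 26714.

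ND-15 (NDUFS5) had a thresholded summit 783 bp from its start, the smallest distance among the unbound genes, and was the gene added when the limit was 1000 bp. For the 28 unbound genes, the distance to the nearest thresholded summit had a median of 7724 bp and reached 111060 bp. A peak in a replicate list without one in the pooled list was found for 5 genes, ND-13B, ND-B17, ND-51L2, ND-B14.5A and ND-B16.6. Of these, ND-13B (NDUFA5) had 25.8 in replicate 1 and 79.8 in replicate 2. The summits lay 493 bp and 1 bp from the ND-13B start, so they need not be the same peak. ND-B17 (NDUFB6) had 28.8 in replicate 1 only. ND-B16.6 (NDUFA13) shares its promoter with kdn, the gene of citrate synthase. The other 15 genes had no peak within 500 bp in any of the 3 lists. These were ND-13A, ND-19, ND-20L, ND-23, ND-24L, ND-30, ND-51L1, ND-75, ND-ACP, ND-B12, ND-B14, ND-B14.5AL, ND-B14.5B, ND-B14.7 and ND-B15. Of them, ND-ACP encodes the mitochondrial acyl carrier protein, which also serves fatty acid synthesis. For a list limited to 30000 peaks, no peak means below the level listed, not an absence of binding. The counts of 5 and 15 genes were not made over all protein-coding genes.

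Shared promoters were counted over all genes as well. Of all 13968 protein-coding genes, 4309 had the start of another protein-coding gene within 500 bp of a start site. Among the 40 complex I genes, 20 did. Of these 20, 8 were bound, or 40% (Wilson 95% interval 21.9% to 61.3%), beside a background of 30.3% of all protein-coding genes with such a neighbour (1307 of 4309). Of the 20 complex I genes without one, 4 were bound, or 20% (8.07% to 41.6%), beside a background of 10.8% (1045 of 9659). The complex I share was above the background in both classes, and both of its intervals contain the background value.

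Measured from the thresholded summit, 8 of the 12 bound genes had the start of another gene within 500 bp, and 4 had none, among them ND-AGGG, ND-20 and ND-B22. This split was not counted over all bound genes. For 6 of the 12 (ND-51, ND-MLRQ, ND-ASHI, ND-PDSW, ND-MWFE and ND-42) the other gene was the closer one, beside 670 of all 2352 bound genes. When each peak was given to its nearest gene only, 6 of 40 complex I genes were bound, or 15%, beside 12.3% of all genes (1717 of 13968). At a shared promoter the peak lists do not tell which of the genes the protein acts on.

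**Figure D3:**
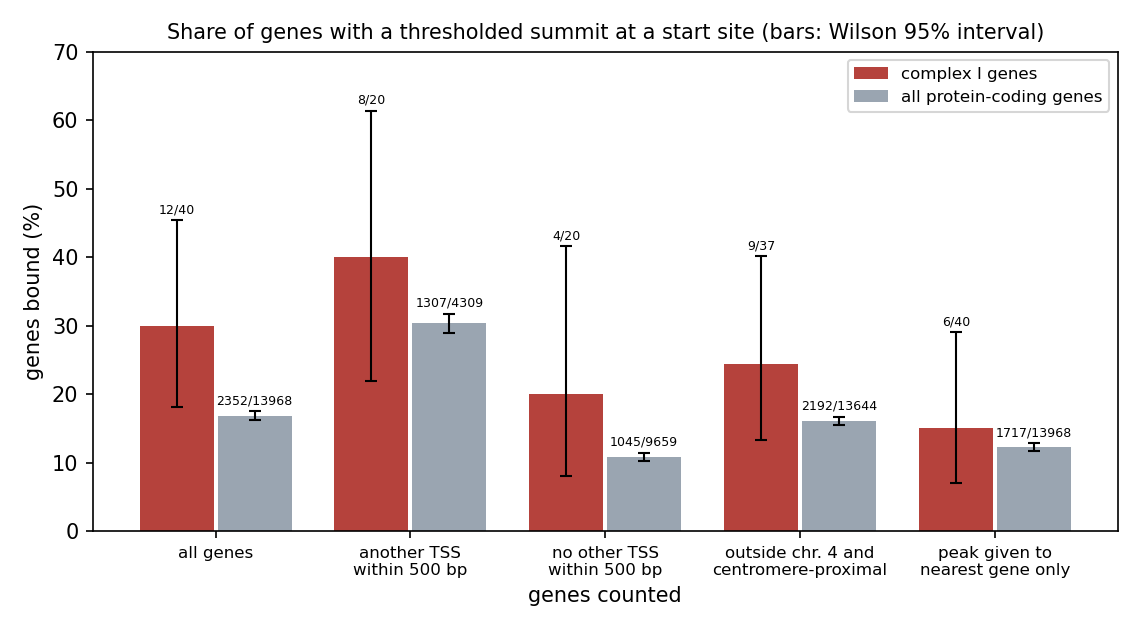
Percent of genes bound (vertical axis) for complex I genes, left in each pair, and all protein-coding genes, right in each pair, with the Wilson 95% interval and the number bound of the number counted above each bar. The complex I share was above that of all genes in every pair, from 30% beside 16.8% for all genes to 15% beside 12.3% when each peak was given to its nearest gene only.

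Over all protein-coding genes, the bound share was higher in centromere-proximal segments than outside them and chromosome 4. Both complex I genes in centromere-proximal segments were bound (Wilson interval 34.2% to 100%), beside a background of 44.3% (108 of 244), which lies inside that interval. These 2 genes are too few to show a trend by region among complex I genes. Segments were taken as centromere-proximal beyond 22 Mb of 2L and 23 Mb of 3L and below 6 Mb of 2R and 4.5 Mb of 3R, with the end of X. Outside these segments and chromosome 4, 9 of 37 complex I genes were bound, or 24.3% (13.4% to 40.1%), beside a background of 16.1% (2192 of 13644), which lies inside that interval.

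The bars of bound share plot these counts beside those for shared promoters. Signals differed by region too. The 2 centromere-proximal complex I genes had signals of 4906 and 2305, beside a median of 1914 for the 108 bound genes of those segments. Outside them and chromosome 4 the median of the 9 bound complex I genes was 240.3, beside 200.7 for 2192 bound genes. ND-51 and ND-20 are the complex I genes outside these regions with a signal over 800. The part of chromosome region and of shared promoters in the share of bound complex I genes was not tested beyond these strata.

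**Figure D4:**
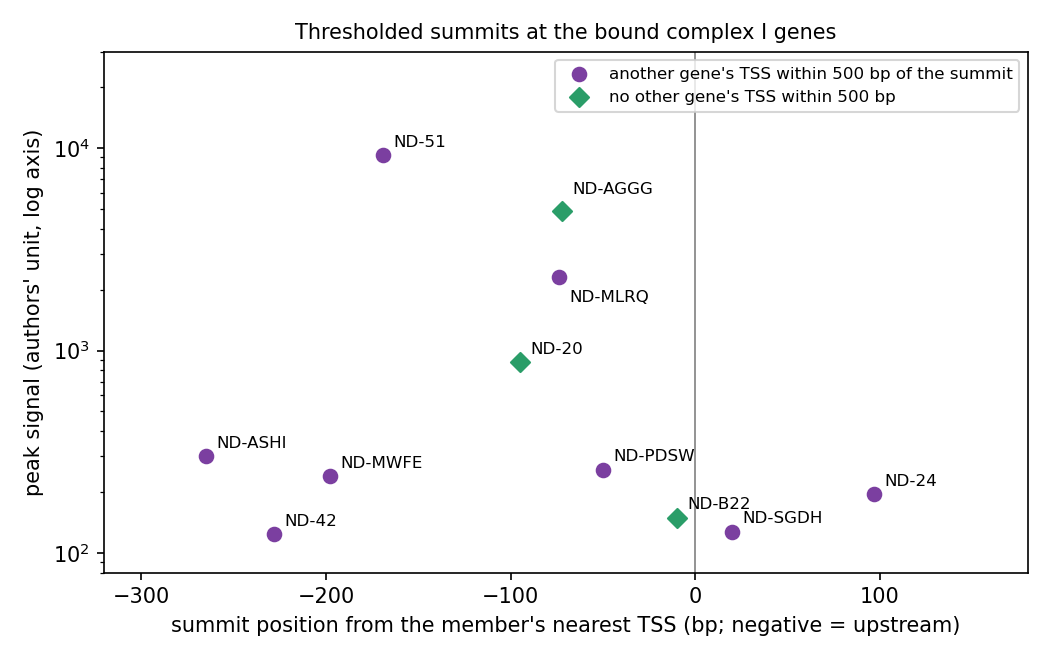
Position of the thresholded summit from the nearest TSS of 11 bound complex I genes (horizontal axis, bp, negative is upstream) against signal (vertical log axis, the authors' unit); circles have the start of another gene within 500 bp of the summit and diamonds do not. The 3 diamonds lie within 100 bp of the start, and the 4 genes shown with a signal over 800 lie between 169 and 72 bp upstream.

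As the plot of summit positions shows, 10 of the 12 summits were upstream of the nearest annotated start and those of ND-24 and ND-SGDH were downstream. Where a gene has several starts, a summit inside the gene can count as upstream, as at ND-B22. The median distance was 95.5 bp (10 to 265), beside 121 bp for all bound genes, and 8 of 12 were within 100 bp. Summits upstream or within 100 bp were not counted over all bound genes. Summits of ND-51, ND-AGGG, ND-MLRQ and ND-20, all with a signal over 800, were upstream, at 169, 72, 74 and 95 bp. The summits of lower signal were more spread, from 265 bp upstream to 97 bp downstream.

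The ND-AGGG peak lies in sequence with a near copy. A window of 331 bp around its summit matched 1 other place in the genome, over 308 bp at 85.06% identity, at the start of CG40472. That gene, which RefSeq also names ND-AGGGL, lies on the same strand and ends 48544 bp before ND-AGGG starts. CG40472 is not among the 40 genes because of its symbol, and it was looked at after its values were seen. It was bound, with a signal of 603.9 in replicate 1 and 1228 in replicate 2, at ranks 126 and 139, and 1790 in the thresholded list, at rank 133, and its summit was 30 bp upstream of its start.

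Aligned with each other, the sequences were identical at 261 of 297 positions, or 87.88%, and the summits fell 1 bp apart in the alignment, as the lines for ND-AGGG and CG40472 show. How reads that match both copies were placed is not given in the sources used here, and its part in either peak was not tested. ND-MLRQ had 4 other matches, the longest of 76 bp at 81.58% identity. The windows of the other 10 bound complex I genes had no other match.

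Sequence motifs were searched on both strands in the promoters, from 250 bases before to 50 bases after the outermost annotated start of each gene. Only this 1 start per gene was used, and it can differ from the start nearest a summit, as at ND-B22. The DNA replication element TATCGATA, bound by DREF, was in 6 of 40 complex I promoters (15%), beside 9.36% of all protein-coding promoters. None of the 12 bound genes had it in this window, and ND-15, ND-19, ND-23, ND-B14.5A, ND-B15 and ND-MNLL of the 28 unbound genes did. In the window of 100 bases on each side of the start, TATCGATA was in 4 of 40 complex I promoters (10%), beside 7.83% of all, at 1 of 12 bound and 3 of 28 unbound genes. Motif 1 of core promoters, GGTCACAC, was in 17.5% of complex I promoters, beside 7.69% of all, at 2 of 12 bound and 5 of 28 unbound genes. Of the further elements of broadly expressed promoters, Ohler 6 (GTATATTT) was in 20%, beside 5.68% of all, and Ohler 7 (CAGCNCTA) in 15%, beside 3.56% of all. Both were found in bound and in unbound complex I genes, at 3 of 12 and 5 of 28 for Ohler 6 and at 2 of 12 and 4 of 28 for Ohler 7. With 100 bases on each side, Ohler 6 was in 12.5%, beside 3.34% of all, and Ohler 7 in 7.5%, beside 2.69% of all, while GGTCACAC stayed at 17.5%, beside 6.74% of all.

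TATAAA was in 62.5% of complex I promoters, beside 45.8% of all, at 10 of 12 bound and 15 of 28 unbound genes. In the narrower window of 100 bases on each side of the start, TATAAA was in 40%, beside 29.1% of all, at 5 of 12 bound and 11 of 28 unbound genes. GAGAG was in 15%, beside 29.7% of all, in the longer window and in 7.5%, beside 22.4% of all, in the narrower one. In the narrower window CAGCTG was in 30%, beside 13.7% of all, at 2 of 12 bound and 10 of 28 unbound genes. In the longer window CAGCTG was in 32.5%, beside 17.6% of all, at 3 of 12 bound and 10 of 28 unbound genes. GCGCATGC, the site of the NRF1 homologue ewg, was in none of the 40, beside 1.05% of all. A pair of CGATA within 20 bp, on either strand, was in 25%, beside 16.7% of all, in the longer window. In the narrower one it was in 17.5%, beside 14.3% of all. A single TATCGATA counts as such a pair, since it reads CGATA on both strands. In the longer window the 6 genes with TATCGATA were thus among the 10 with a pair. These matches are descriptions of the letters and do not show that a factor sits there.

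Around the thresholded summits themselves, 100 bases on each side, TATAAA was in 7 of the 12 complex I windows (58.3%), beside 32.3% of all 3535 summit windows and 22.2% of 7070 flanking windows. TATCGATA was in 1 of 12, that of ND-SGDH at 48 bp from the summit, beside 6.48% of all summit windows and 0.919% of flanks. CAGCTG was in 3 of 12, beside 9.59% of all summit windows and 9.5% of flanks. GGTCACAC was in 2 of 12, those of ND-PDSW and ND-SGDH, beside 3.82% of all summit windows and 0.75% of flanks. GTGTGAAC, chosen after it was seen to be more frequent at the thresholded summits than in flanks, was in none of the 12 complex I windows, beside 3.37% of all summit windows and 0.566% of flanks. The windows of ND-51 and ND-AGGG, the strongest of the 12, held none of the 10 patterns searched.

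The gap between the starts of ND-PDSW and msl-2 is shown because it holds one of its Motif 1 matches. It is the RefSeq sequence of chr2L:3466113-3466156, plus strand, in the direction of ND-PDSW, with the match, here on the opposite strand, in capitals.
ND-PDSW and msl-2: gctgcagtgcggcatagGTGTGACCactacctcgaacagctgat
The matches at this promoter lay 24 and 26 bp from the summit, at 74 and 24 bp upstream of the ND-PDSW start.

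Other genes of the same pathway were counted in the same way. Of 8 genes for complex I assembly factors, which build the enzyme without staying in it, 4 were bound, or 50% (Wilson 95% interval 21.5% to 78.5%), beside the background of 16.8% of all protein-coding genes. Nubpl, which supplies iron-sulphur clusters to complex I, had a thresholded signal of 2802 at rank 82 and lies in the centromere-proximal segment of 2L. CIA30 (NDUFAF1) had 637.7 at rank 352, with its summit 109 bp from its own start and 111 bp from that of CG7601. CG17726 had 263.7 and CG8067 had 146.7. CG11722, CG5569, ECSIT and sicily were not bound.

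Of 55 nuclear genes of complexes II to V, 15 were bound, or 27.3% (17.3% to 40.2%), against the same background of 16.8% of all protein-coding genes. The counts were 1 of 7 for succinate dehydrogenase, 4 of 13 for complex III, 5 of 18 for cytochrome c oxidase and 5 of 17 for ATP synthase. The complex I share of 30% lies inside the interval of the other complexes, and theirs lies inside its own, with paralogues counted in both. The 55 genes also include paralogues with symbols ending in L or in L and a number, such as SdhAL, UQCR-14L, COX7AL2 and ATPsynbetaL. No such paralogue was bound. The share of complexes II to V without them was not computed, and the paralogue content of the 2 sets differs. Next to the UQCR-11 peak, the strongest of these 55 with a thresholded signal of 6946 at rank 23, came that of ATPsynbeta, the catalytic subunit of ATP synthase. ATPsynbeta had 1596 at rank 152, at a summit 474 bp from its own start and closer to the start of CG11076. UQCR-11 lies in the centromere-proximal segment of 3L and ATPsynbeta on chromosome 4. All bound protein-coding genes had a median signal of 1914 in centromere-proximal segments and 1886 on chromosome 4, beside 200.7 elsewhere. ATPsynC, the ring subunit that turns with the proton flow, had 326.3 and blw, the alpha subunit, had 227.3. Of 4 complex I subunits with other symbols, looked up after their values were seen, CG40472 was bound and NP15.6, NdufA3 and NdufV3 were not.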

How the data were processed

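The data are ChIP-seq peak lists of 2 replicates. Per the labels, chromatin was sonicated to 200 to 800 bp and mapped to dm6. The authors deposited 1 list per replicate, 1 pooled list and 1 optimal list thresholded by reproducibility (IDR); which aligner, which peak caller and what IDR threshold were used is not stated in them. The signal column is the authors' deposited value, of unstated scale, used only to rank and describe peaks within a list. The −log10 q-value column deposited by the authors was not used for results. Summit positions were computed from the other deposited column, the offset of the summit; offsets outside their interval (1 peak in replicate 1, 4 in replicate 2) were set to the midpoint. All 3535 thresholded peaks were the highest of the pooled list, so thresholded and pooled ranks are equal.

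Genes and TSSs came from Ensembl release 115; start and end were the same in RefSeq for 40 of 40 members. Where several summits lay within 500 bp, the strongest was used. Shares carry Wilson 95% intervals. The rule named every member, with full values for bound members and for the 5 unbound members of highest pooled signal, and of other lists up to 4 bound genes of highest signal. No hypothesis test was run, since there is 1 group and genes are not samples. The code that assigns summits to genes was checked on summits planted at known distances, which says nothing of the reported shares. Tools were Python 3.11.15, pandas 2.3.3, numpy 2.4.6, scipy 1.17.1, matplotlib 3.10.9, blastn 2.17.0 (e-value up to 1e-05, for copies of summit windows) and Biopython 1.88 (local alignment). Motifs were searched from 250 bases before to 50 after the outermost annotated start of each gene, and alternatively 100 on each side of it. Alternatives changed the distance, start sites, threshold, replicate, gene assignment, summit and region. 1 bound member is counted but its own values are not reported here. The members, gene lists and motifs were chosen with earlier results of these data known.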

Additional observations from a re-analysis of the deposited data

How the results depend on the processing

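The count of bound complex I genes stayed within 1.5 times of 12 at a distance of 200 bp (10 genes) or 1000 bp (13), with 1 TSS per gene (12), with the 1767 strongest thresholded peaks (9), with interval midpoints (11), without chromosome 4 and the centromere-proximal segments (9) and with RefSeq start sites (12, chosen after seeing the data). The share of all protein-coding genes moved too: 12.3% at 200 bp, 19.2% at 1000 bp, 15.2% with 1 TSS per gene and 9.65% with the 1767 strongest peaks. It was 16.8% with interval midpoints, 16.1% without chromosome 4 and the centromere-proximal segments, and 16.8% with RefSeq start sites. Giving each peak to its nearest gene only lowered the complex I count to 6 genes, or 15%, beside 12.3% of all genes. Taking every pooled-list peak raised the complex I count to 20 genes, or 50%, beside 46.9%. Over all protein-coding genes, the count of 2352 became 1348 with the 1767 strongest peaks and 6551 with every pooled-list peak. Leaving out each replicate in turn gave 11 to 12 complex I genes, 27.5% to 30%, and 2296 to 2348 of all genes, 16.4% to 16.8%. In each case the 3535 highest-signal peaks of the remaining replicate were taken. Without replicate 2, ND-42 and ND-SGDH were lost and ND-B8 was gained. Without replicate 1 the bound genes were the same 12, with ND-B22 only just inside at rank 3533. Of the ranks at single genes without a replicate, 20 moved by under 1.5 times and 3 by more (without replicate 2, ND-51 rank 19, ND-24 rank 3336 and ND-B22 rank 1266). No paired analysis was possible because the samples form 1 group. With sequencing depth unknown, a missing peak sets no limit on binding.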
